A study of Mus musculus with 1824 samples.

Results

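Nodal, Tdgf1, Foxh1, Lefty1, Lefty2 and Cer1 were chosen by name as the ligand, co-receptor, DNA-binding partner and secreted inhibitors of Nodal signalling, and they are 6 of the 55487 genes in the deposited table. The rule used names and no measured value, and each was found in the table once. A further 24 genes of the same pathway (other ligands, convertases, receptors, Smads, repressors and targets) were listed for comparison.

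Single cells of mouse embryos labelled strain CD1 were profiled by Smart-seq2, a plate method that reads whole transcripts, at embryonic day 7.5 (E7.5, 11 plates of 96 wells) and 8.5 (E8.5, 8 plates). By the methods given for the series, chimaeras came from C57BL/6J blastocysts that had received embryonic stem cells of a Tet triple-knockout line carrying H2B-tdTomato. The blastocysts were transferred to CD1 recipients. The methods state pooling of chimaera embryos where cells were sorted into tubes by tdTomato. For sorting into plates they name a stain for KDR, CD41 and DAPI and do not mention pooling. The labels state neither genotype nor sort gate for a cell, so knockout and host cells cannot be told apart in any value given here. The labels name an animal only on the E7.5 plates of embryos 1, 2, 4 and 5, which are labelled as Tet-tko chimaeras and served as the replicates. That each of these plates holds 1 animal rests on its label. The other E7.5 plates are 1 further plate labelled tet chimera (here the chimera plate) and 6 lane plates, and E8.5 counts as 1 sample measured on 8 plates. The labels of the lane and E8.5 plates do not name a chimaera.

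The 1634 cells kept, 57.8% of them from E7.5, had at least 100000 reads, at most 10% mitochondrial and at most 20% ribosomal reads. Their totals ran from 100941 to 6162793 reads with a median of 678018, and 57 to 94 cells were kept on a plate. Smart-seq2 as used here has no molecular identifiers, so intervals on reads or cells cover counting error only.

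Nodal is a secreted TGF-beta family ligand that binds activin receptors together with the co-receptor Cripto, the product of Tdgf1. The receptors phosphorylate Smad2 and Smad3, which enter the nucleus with Smad4 and act on many targets through Foxh1, and Nodal itself, Lefty1 and Lefty2 are among those targets. Lefty1, Lefty2 and Cer1 are secreted inhibitors, and in the mouse gastrula the pathway is known for patterning the anterior-posterior axis and for inducing mesoderm and endoderm.

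The 250 bases before the annotated start were read from RefSeq's promoter table (GRCm38.p6) for Nodal, Tdgf1 and Cer1, the 3 of 6 members that matched an entry. They are shown as the regulatory sequence of the ligand, its co-receptor and the inhibitor most abundant in these cells, and Lefty1, Lefty2 and Foxh1 are named only. Capitals mark matches on either strand to any of 4 sets of letters. TGTNNATT stands for a Foxh1 site. CAGAC stands for a Smad element. TATAAA stands for a TATA box. TAATTA stands for a homeobox core, and no match overlaps another. The sequences lie at chr10:61417722-61417971 on the plus strand (Nodal), chr9:110946159-110946408 on the minus strand (Tdgf1) and chr4:82885152-82885401 on the minus strand (Cer1), each written 5′ to 3′ on the strand of its gene.
Nodal: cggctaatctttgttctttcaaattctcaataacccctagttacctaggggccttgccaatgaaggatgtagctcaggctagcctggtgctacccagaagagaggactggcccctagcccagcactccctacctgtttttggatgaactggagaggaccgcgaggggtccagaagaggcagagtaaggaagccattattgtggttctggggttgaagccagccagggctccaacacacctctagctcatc
Tdgf1: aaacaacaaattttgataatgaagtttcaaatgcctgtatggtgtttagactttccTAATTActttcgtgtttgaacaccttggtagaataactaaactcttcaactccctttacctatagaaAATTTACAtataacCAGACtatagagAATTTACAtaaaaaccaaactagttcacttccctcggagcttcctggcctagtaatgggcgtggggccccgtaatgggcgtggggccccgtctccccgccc
Cer1: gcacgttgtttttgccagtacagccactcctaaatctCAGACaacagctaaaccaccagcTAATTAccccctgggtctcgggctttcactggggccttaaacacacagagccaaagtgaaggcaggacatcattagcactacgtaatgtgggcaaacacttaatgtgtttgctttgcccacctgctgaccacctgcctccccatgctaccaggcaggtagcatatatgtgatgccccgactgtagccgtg

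The Tdgf1 window held 2 copies of the Foxh1 letters on the opposite strand, starting at bases -127 and -101 from the gene's start, with 18 bases between them that include the Smad letters. The Cer1 window held the Smad letters and, like that of Tdgf1, the homeobox letters, and the Nodal window held none of the 4 sets. Of 32851 promoter windows of the same length, 10.9% held the Foxh1 letters, 42.2% the Smad letters, 12.4% the TATA letters and 4.84% the homeobox letters. A match describes letters only.

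Lefty1 (chr1:180935022-180938400, plus strand) and Lefty2 (chr1:180893108-180899103, plus strand) lie 35919 bases apart, and their coding sequences, each 1107 bases long, are 91.9% identical. Over whole transcripts, 11.2% of the 75-base positions of Lefty1 and 7.21% of those of Lefty2 occur in the other gene. Tdgf1 (chr9:110939603-110946158, minus strand) shares 8.67% of its 75-base positions with the processed pseudogene Tdgf1-ps1 on chromosome 16. Nodal (chr10:61417972-61425338, plus strand) and Foxh1 (chr15:76668225-76669948, minus strand) share none, and Cer1 (chr4:82881751-82885148, minus strand) shares 0.120%. How the authors' counting treated reads with several matches is not given in the sources used here.

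At E7.5 the ligand, the co-receptor, Lefty2 and Cer1 were found on the plates of all 4 named embryos and were at or near 0 on lane plates 1 and 2. Levels are pooled CPM, the reads of a gene summed over a plate's cells per 1000000 reads of that plate, and in such sums fewer cells of a type and less RNA per cell cannot be told apart. Nodal stood at 22.1, 34.5, 16.5 and 29.1 CPM in embryos 1, 2, 4 and 5. Over the 11 E7.5 plates it ran from 0 to 42.9 CPM with a median of 16.5, highest on the chimera plate and at 0 on lane plates 1 and 2.

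Tdgf1, the co-receptor gene, stood at 623.5, 641.4, 109.8 and 242.8 CPM in embryos 1, 2, 4 and 5. Over the E7.5 plates it ran from 0.0419 to 865.5 CPM with a median of 242.8. Embryos 1 and 2 lay above embryos 4 and 5. A list of 8 visceral endoderm markers that includes Ttr summed to 4052.7 and 1144.2 CPM in embryos 4 and 5 against 5.15 and 5.94 CPM in embryos 1 and 2, and its part in the difference was not tested.

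Foxh1, the transcription factor that pairs with Smads, stood at 254.3, 286.1, 112.1 and 182.9 CPM in the 4 embryos and between 50.2 and 357.3 CPM over the E7.5 plates. It was the 1 member with more than 10 CPM on every E7.5 plate. Among the inhibitors Cer1 was the most abundant, with 166.3, 257.7, 129.1 and 201.3 CPM in embryos 1, 2, 4 and 5.

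Lefty2 stood at 50.1, 39.8, 30.4 and 25.8 CPM in the same embryos and reached 122.5 CPM on lane plate 6. Lefty1 was the lowest member, with 10.1, 2.85, 3.46 and 6.84 CPM. Over the E7.5 plates Cer1 ran from 0 to 257.7, Lefty2 from 0 to 122.5 and Lefty1 from 0 to 10.1 CPM.

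Lane plates 1 and 2 stood apart from the rest. On lane plate 1 the erythroid marker list summed to 46702 CPM, and 50 of its 93 cells had at least 1000 CPM of the embryonic globin gene Hba-x. On lane plate 2 the haematoendothelial list (Kdr, Etv2, Tal1, Cdh5, Pecam1, Runx1) summed to 2132 CPM. Nodal, Lefty1, Lefty2 and Cer1 were each at or under 1.21 CPM on these plates, while Foxh1 stood at 130.5 and 50.2 CPM.

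Divided by exon length, pooled E7.5 levels ranked Foxh1 (151.9 CPM per kilobase), Tdgf1 (113.5), Cer1 (51.7), Lefty2 (13.01), Nodal (7.63) and Lefty1 (1.56). The plate ranges of each pair of neighbours in this order overlapped.

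**Figure D1:**
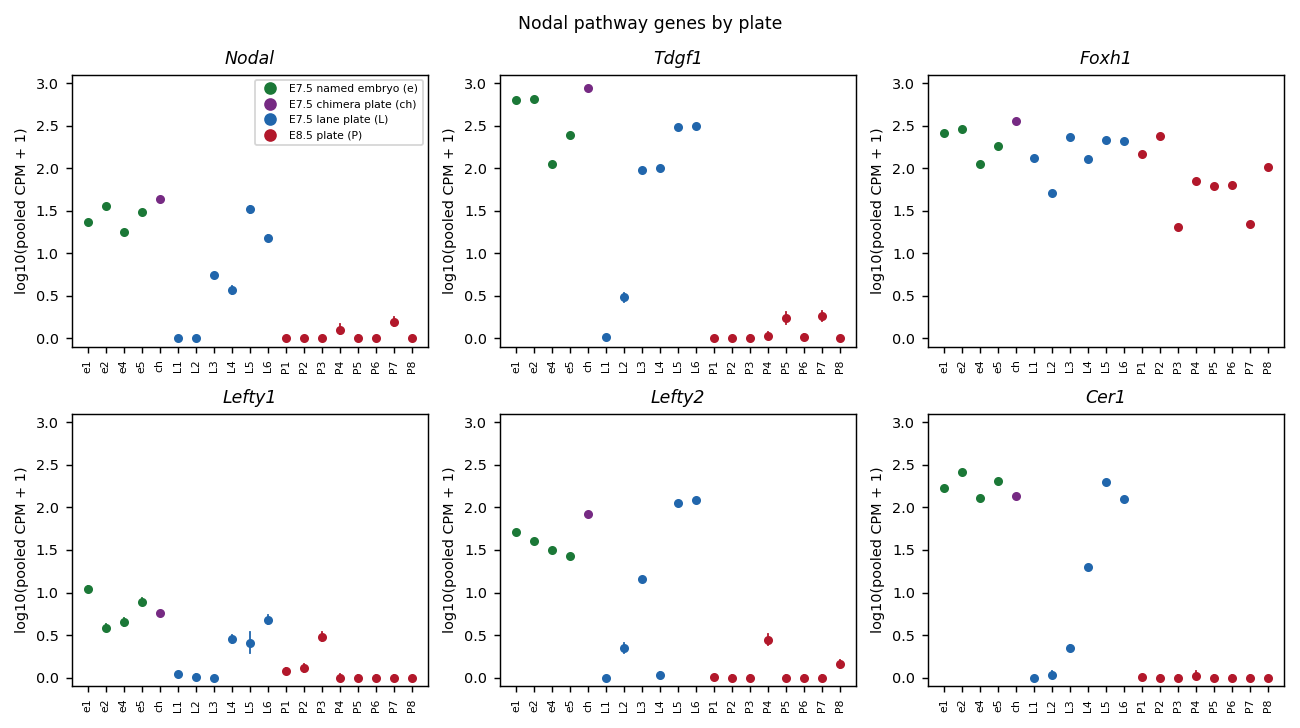
Each panel shows 1 member, with the 19 plates on the x axis and log10 of pooled CPM plus 1 on the y axis; lines are exact 95% Poisson intervals, mostly hidden by the points. Nodal, Tdgf1, Lefty2 and Cer1 are near 0 on lane plates 1 and 2 and on the E8.5 plates, while Foxh1 is at 19.4 CPM or more on every plate.

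At E8.5 all 6 members were lower in the pooled cells, and Foxh1 was the 1 member above 1 CPM. Nodal went from 15.98 to 0.0882 CPM, Tdgf1 from 297.5 to 0.1704, Lefty2 from 33.98 to 0.213, Cer1 from 89.99 to 0.00602, Lefty1 from 2.74 to 0.313 and Foxh1 from 207.3 to 95.5 CPM. The log2 ratios of E8.5 over E7.5, with 1 CPM added to both, were -3.96 for Nodal, -7.99 for Tdgf1, -4.85 for Lefty2, -6.50 for Cer1, -1.51 for Lefty1 and -1.11 for Foxh1. They have no test, because no animal is named at E8.5. The cells of the stages also differed in markers. Cells with 10 CPM or more of Pou5f1 made up 53.02% of cells at E7.5 and 2.467% at E8.5. For Mixl1 these shares were 41.16% and 3.048%. The ratios are those of all kept cells, and the part of cell types in them was not tested.

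The highest E8.5 plate held 0.5604 CPM of Nodal, 0.832 of Tdgf1, 1.79 of Lefty2, 0.0505 of Cer1 and 2.03 of Lefty1. Of the 11 E7.5 plates, 10 lay above every E8.5 plate for Tdgf1 and for Cer1, 9 for Nodal, 8 for Lefty2, 6 for Lefty1 and 3 for Foxh1. For 0 of the 6 members did all E8.5 plates lie below all E7.5 plates, as they did for 1.41% of the 9886 genes with at least 10 CPM in a stage. Without lane plate 1 this held for 2 members, Tdgf1 and Cer1, and for 1.89% of genes. Without both E7.5 plates that hold Hba-x cells (lane plates 1 and 4), a choice made after seeing the data, it held for the same 2 members and for 1.92% of 9925 genes.

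A log2 ratio of -1 or lower was found for all 6 members, and, over the 9886 genes with at least 10 CPM in a stage, for 8.23%, with a ratio of 1 or higher for 6.99% and a median of 0.08. Nodal, Tdgf1, Lefty2 and Cer1 passed that minimum only through E7.5, where they are high, and Lefty1 did not pass it, so nothing is read from the members' count against these shares. Over the alternatives the ratio of Foxh1 reached -0.96. Of the other pathway genes 19 passed the minimum, 10 of them with ratios of -1 or lower and 0 with ratios of 1 or higher, and their median was -1.18. Of these 10, Cfc1, Smad7, Gsc, Eomes, Lhx1 and Fgf8 passed it only through E7.5. The pathway count and median are therefore not read against these shares either.

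Among the other pathway genes, Eomes, a T-box factor and Nodal target, went from 107.8 to 0.576 CPM (-6.11). The organiser genes Lhx1 and Gsc went from 108.7 to 2.54 CPM (-4.95) and from 16.4 to 0.632 CPM (-3.41). Cfc1, whose product is a co-receptor related to Cripto, went from 19.7 to 1.91 CPM (-2.83). The ratios of the signal transducers were -0.21 for Smad2, 0.30 for Smad3 and -0.85 for Smad4. Those of the receptor genes were -0.27 for the type I receptor gene Acvr1b and -1.18 and -0.58 for the type II receptor genes Acvr2a and Acvr2b.

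Counted by cell, detection means at least 1 read after each cell was thinned at random to 100000 reads. At E7.5 Nodal was detected in 23.3% of cells (exact 95% binomial interval 20.6 to 26.1), Tdgf1 in 45.8%, Foxh1 in 85.5%, Lefty2 in 12.6%, Cer1 in 8.99% and Lefty1 in 3.704%. Without thinning the shares were 26.7, 51.1, 89.1, 16.4, 11.7 and 4.97% in the same order. At E8.5 Nodal was detected in 2 cells (0.2903%), Tdgf1 in 4, Lefty1 in 6 (0.871%), Lefty2 in 3, Cer1 in 1 and Foxh1 in 50.1% of cells.

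Cells with at least 1000 CPM of Hba-x, an erythroid gene, were taken as cells that should lack these genes. Of these 190 cells (median 877686 reads, against 742762 over the E7.5 cells), 0 held Nodal, Tdgf1 or Cer1 after thinning, which allows a share of up to 1.58% (3 counts of the total), while 1 held Lefty2 and 2 held Lefty1 (1.05%). Lane plate 1 held 50 of them, lane plate 4 held 2 and the rest lay on 4 of the E8.5 plates, so they give no background for free RNA on the E7.5 plates rich in the members, where it was not measured. On the plates of embryos 1, 2, 4 and 5 the Pou5f1-negative cells held 326.2, 709.3, 9.18 and 0.0715 CPM of Tdgf1. The lowest value, in 54 cells of embryo 5, compares with 242.8 CPM over all cells of that embryo. Free RNA and expression in these cells cannot be told apart in such sums. The E8.5 shares of the 5 members other than Foxh1 were no higher than those the Hba-x cells allow. Shares that low could not have exceeded this limit, and most Hba-x cells are themselves E8.5 cells. The comparison therefore cannot tell expression from background, and the E8.5 shares are not read as either. The interval for Lefty1 at E7.5 (2.59 to 5.11%) overlapped that in the Hba-x cells (0.128 to 3.75%). Foxh1 was detected in 94.2% of the Hba-x cells.

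Reads of the inhibitors were concentrated in few cells. The 10 highest E7.5 cells carried 77.2% of the summed cell CPM of Lefty1, 51.6% of that of Cer1 and 43.99% of that of Lefty2, against 15.1% for Nodal, 8.99% for Tdgf1 and 3.802% for Foxh1. Single cells reached 8109 CPM of Cer1 and 2338 CPM of Lefty2, and 30 cells exceeded 1000 CPM of Cer1. The highest Nodal cell held 340.6 CPM.

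The E7.5 cells were next split by 4 marker genes, asking in which cells each member lay. A cell was positive at 10 CPM or more of Pou5f1 (an epiblast and pluripotency factor), Mixl1 (a primitive streak homeobox gene), Foxa2 (expressed in definitive endoderm, axial mesoderm and visceral endoderm) or Ttr (a visceral endoderm transport protein). By this rule 53.02% of cells were Pou5f1-positive, 41.2% Mixl1-positive, 11.4% Foxa2-positive and 3.92% Ttr-positive, and 35.98% had none of the 4. The visceral endoderm list, which includes Ttr, summed to 12562 CPM in Ttr-positive and 5.17 CPM in Ttr-negative cells.

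Nodal was found in both Pou5f1-positive and Foxa2-positive cells. It was detected in 37.1% of Pou5f1-positive and 7.66% of Pou5f1-negative cells, and in 70.4% of Foxa2-positive and 17.2% of Foxa2-negative cells. These shares and those of the classes below pool cells over plates. Of the Pou5f1-negative cells 92 and 82 lay on lane plates 1 and 2, where Nodal was at 0. In Pou5f1-positive cells of embryos 1, 2, 4 and 5 the shares were 38.8, 47.2, 38.5 and 41.2%. In the Pou5f1-negative cells they were 28.6, 0, 15.4 and 18.5%. By Foxa2 they were 68.75, 92.9, 83.3 and 64.7% of positive and 31.6, 36.25, 12.7 and 18.3% of negative cells. Among Foxa2-positive cells the pooled share was 73.9% in the 23 with Ttr and 69.4% in the 85 without. Of the cells with none of the 4 markers, 3 held Nodal (0.882%).

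Tdgf1 was spread otherwise over the same classes. It was detected in 87.4% of cells positive for both Pou5f1 and Mixl1, 64.1% of those with Pou5f1 alone, 31.9% with Mixl1 alone and 4.03% with neither. Among Foxa2-positive cells it was found in 85.9% of those without Ttr and in 2 of the 23 with Ttr (8.696%). Cells with both Foxa2 and Ttr thus held the ligand in 17 of 23 cells and the co-receptor in 2. In the 28 Foxa2-positive cells without Pou5f1 the shares were 57.1% for Nodal and 3.57% for Tdgf1. Embryos 4 and 5, where pooled Tdgf1 was lower than in embryos 1 and 2, held 8 and 11 of these 28 cells. They held 9 and 10 of the 23 Foxa2-positive cells with Ttr, and 3 and 7 of the 85 without. The part of the embryo in these Tdgf1 shares was not tested.

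Each inhibitor had its own distribution over the classes. Lefty2 was detected in 27.8% of cells with both Pou5f1 and Mixl1, 10.3% with Pou5f1 alone and 5.56% with Mixl1 alone, and 98.3% of its summed cell CPM came from Pou5f1-positive cells. Cer1 was detected in 50.9% of Foxa2-positive and 3.58% of Foxa2-negative cells, and the Foxa2-positive cells carried 86.1% of its summed cell CPM. Lefty1 was detected in 15.7% of Foxa2-positive and 2.15% of Foxa2-negative cells, and the Foxa2-positive cells carried 78.2% of its summed cell CPM.

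At 10 CPM or more, 14 E7.5 cells held Lefty1 without Lefty2 and 13 held both, with Lefty1 the higher in 2 of the 13. Of the 27 cells with Lefty1, 14 were Foxa2-positive, and of those with Lefty2 9.65% were. Of 71 cells with Cer1, 54 were Foxa2-positive, 37 of them without Ttr and 17 with it.

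**Figure D2:**
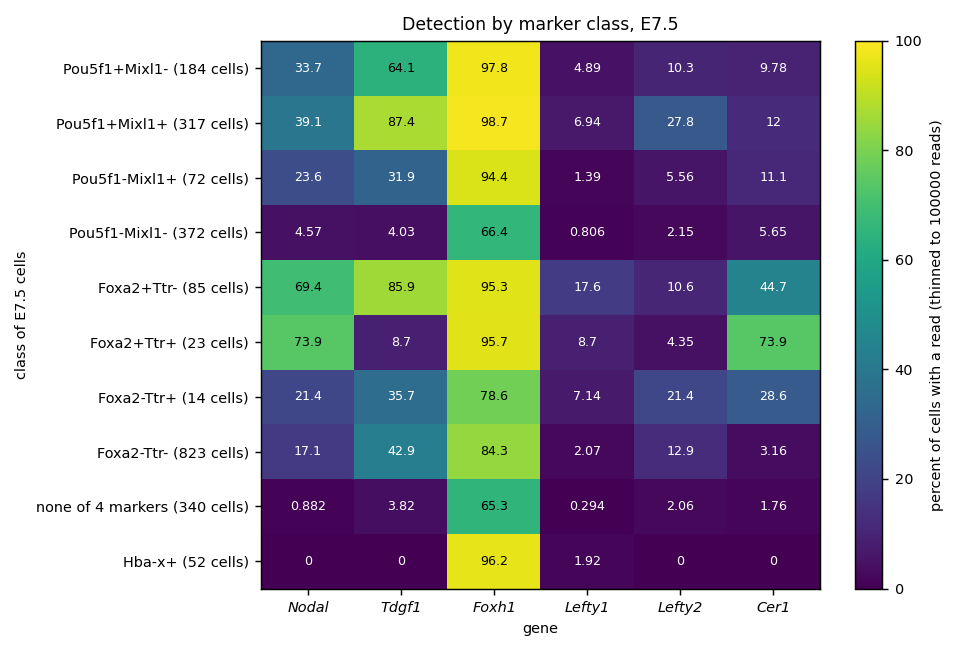
Rows are classes of E7.5 cells by marker (positive at 10 CPM or more; number of cells in brackets), columns are the members, and colour and numbers give the percent of cells with a read after thinning to 100000 reads. Nodal and Cer1 are each detected in 73.9% of Foxa2-positive cells with Ttr, Tdgf1 in 8.696% of them, and Foxh1 in 96.2% of the 52 Hba-x cells.

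Within the 4 named embryos each class was summed per embryo and tested with edgeR's quasi-likelihood test with embryo as a block, at 1% FDR (Benjamini-Hochberg) and an absolute log2 fold change of at least 1. Called were 0 of the 6 members in each of the 3 splits, all 6 having passed the filter on low counts. Of the genes tested, 0% of 18328 were called higher and 0% lower in Pou5f1-positive cells, 0% of 19376 higher and 0% lower in Mixl1-positive cells, and 0.0106% of 18836 higher (Tmprss2 and Dgkk) and 0.00531% lower (Nexmif) in Foxa2-positive cells, these 3 genes being named after their values were seen. At an unadjusted p under 0.05 stood 1 member and 2058 genes for Pou5f1, 3 members and 2311 genes for Mixl1, and 3 members and 2372 genes for Foxa2. DESeq2 on the same sums called 1 member for Pou5f1 (Lefty2), 2 for Mixl1 (Tdgf1 and Lefty2) and 3 for Foxa2 (Nodal, Lefty1 and Cer1), where it called 3.05, 2.96 and 3.32% of all genes.

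Lefty2 was higher in the Pou5f1-positive class of every named embryo. It stood at 53.8, 41.6, 103.7 and 66.6 CPM in Pou5f1-positive cells of embryos 1, 2, 4 and 5 and at 0, 0, 0.822 and 0.501 CPM in Pou5f1-negative cells. The groups did not overlap, as they did not for 8.28% of the genes tested in this direction. Lefty2 was detected in 18 of 85, 21 of 89, 5 of 26 and 9 of 34 positive cells. In the negative class it was detected in 0 of 7, 0 of 5, 2 of 65 and 2 of 54 cells. The log2 fold change was 7.48 ± 0.64 (SE, n = 4 embryos) with an edgeR adjusted p of 0.129, and over the alternatives the adjusted p ran from 1.19e-36 with DESeq2 to 0.705. The negative class held 7, 5, 65 and 54 cells, and its extraembryonic ectoderm list summed to 5.73, 35.9, 2024.8 and 1870.2 CPM. The part of either in the result was not tested. Over the 9 E7.5 plates with 5 or more cells of both classes, Lefty2 was higher in the positive class on 8, and the groups overlapped.

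For the other members the Pou5f1 classes overlapped. Tdgf1 stood at 645.8, 638.3, 359.1 and 633.7 CPM in Pou5f1-positive and at 326.2, 709.3, 9.18 and 0.0715 CPM in Pou5f1-negative cells of embryos 1, 2, 4 and 5 (log2 fold change 3.42 ± 2.25, adjusted p = 0.6196). Its negative cells stood above all 4 positive sums in embryo 2, below them in embryo 1 and far below them in embryos 4 and 5. In embryo 2 the negative sum came with detection in 1 of 5 cells, against 79 of 89 positive cells. Nodal stood at 23.2, 36.05, 35.1 and 37.7 CPM against 7.58, 0, 9.04 and 23.8 CPM, higher in the positive class of 4 of 4 embryos (log2 fold change 2.23 ± 1.09, adjusted p = 0.497).

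Foxh1 stood at 243.6, 281.2, 247.2 and 311.8 CPM in Pou5f1-positive against 397.3, 393.6, 57.6 and 102.9 CPM in Pou5f1-negative cells (log2 fold change 0.59 ± 0.55, adjusted p = 0.7396). Lefty1 stood at 9.83, 2.98, 11.9 and 0.518 CPM against 13.5, 0, 0.04697 and 10.8 CPM (log2 fold change 1.61 ± 2.89, adjusted p = 0.892). Cer1 stood at 129.99, 269.4, 135.9 and 32.9 CPM against 649.4, 0, 126.4 and 305.8 CPM (log2 fold change -0.67 ± 1.96, adjusted p = 0.939). In the negative class of embryo 1, Lefty1 and Cer1 were each detected in 1 of 7 cells. For Lefty1 and Cer1 the direction of the fold change turned when 1 embryo was left out.

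In the Mixl1 split 2 members, Lefty2 and Tdgf1, had all 4 positive sums above all 4 negative sums, as did 4.16% of the genes tested. Lefty2 stood at 69.7, 56.9, 85.2 and 58.1 CPM in Mixl1-positive and at 2.16, 2.68, 2.96 and 0.512 CPM in Mixl1-negative cells of embryos 1, 2, 4 and 5 (log2 fold change 5.15 ± 0.44, adjusted p = 0.0654). Tdgf1 stood at 785.1, 830.9, 292.4 and 538.8 CPM against 229.7, 230.3, 18.3 and 10.7 CPM (log2 fold change 3.23 ± 0.76, adjusted p = 0.212). In the Mixl1-negative class the visceral endoderm list summed to 8.01, 4.69, 5861.4 and 1826.2 CPM and the extraembryonic ectoderm list to 22.8, 17.6, 1679.1 and 1760.7 CPM, high in the 2 embryos with the lowest Tdgf1, and their part in the result was not tested. Neither passed edgeR's threshold. Over the alternatives the adjusted p of Lefty2 ran from 1.14e-39 to 0.341 and that of Tdgf1 from 0.00637 to 0.489, both lowest with DESeq2. On the 10 E7.5 plates with 5 or more cells of both classes, Lefty2 was higher on 8 and Tdgf1 on 10. The groups of both overlapped over these plates.

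Nodal was higher in the Mixl1-positive class in 2 of 4 embryos. It stood at 20.5, 29.5, 19.4 and 49.4 CPM in Mixl1-positive and at 26.01, 45.4, 15.1 and 13.3 CPM in Mixl1-negative cells (log2 fold change 0.28 ± 0.45, adjusted p = 0.889). Foxh1 stood at 281.1, 327.9, 185.03 and 279.2 CPM against 188.9, 195.3, 75.6 and 107.5 CPM, higher in 4 of 4 embryos with overlapping groups (log2 fold change 0.99 ± 0.16, adjusted p = 0.126). Cer1 (log2 fold change -0.53 ± 0.38, adjusted p = 0.661) and Lefty1 (log2 fold change 0.84 ± 1.91, adjusted p = 0.9299) did not pass either.

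In the Foxa2 split 3 members, Cer1, Nodal and Lefty1, had all 4 positive sums above all 4 negative sums, as did 2.95% of the genes tested. Cer1 stood at 1059.6, 1578.8, 657.6 and 854.8 CPM in Foxa2-positive cells of embryos 1, 2, 4 and 5 and at 0.678, 3.32, 46.8 and 40.3 CPM in Foxa2-negative cells (log2 fold change 6.76 ± 1.52, adjusted p = 0.213). Nodal stood at 44.5, 75.3, 59.8 and 92.4 CPM against 17.9, 26.6, 9.805 and 13.6 CPM (log2 fold change 2.04 ± 0.33, adjusted p = 0.0929). Lefty1 stood at 63.6, 9.93, 10.7 and 33.6 CPM against 0.1696, 1.49, 2.34 and 0.247 CPM (log2 fold change 4.93 ± 1.39, adjusted p = 0.299). These Lefty1 sums rest on few cells. After thinning it was detected in 3 of 16, 4 of 14, 2 of 12 and 1 of 17 positive cells. In the negative class it was detected in 2 of 76, 4 of 80, 4 of 79 and 1 of 71 cells.

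None of the 3 passed edgeR's threshold within the named embryos. Over the alternatives the adjusted p of Nodal ran from 1.22e-07 to 0.436, that of Cer1 from 1.33e-07 to 0.451 and that of Lefty1 from 2.04e-06 to 0.666, the lowest each time with DESeq2. With plate as the block over the 8 E7.5 plates that held 5 or more cells of both classes, edgeR called Nodal (log2 fold change 2.08, adjusted p = 0.00714) and 0.471% of all genes, but no animal is named for the 4 plates added, which may share animals. Nodal and Cer1 were higher in the Foxa2-positive class on 8 of these 8 plates and Lefty1 on 7.

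Lefty2 was lower in Foxa2-positive cells of 3 of 4 embryos, with 91.3, 6.14, 0.496 and 22.7 CPM against 42.4, 46.3, 35.1 and 26.6 CPM (log2 fold change -1.66 ± 1.19, adjusted p = 0.578). Tdgf1 (log2 fold change 0.14 ± 0.17, adjusted p = 0.7503) and Foxh1 (log2 fold change -0.17 ± 0.12, adjusted p = 0.578) had fold changes near 0. The visceral endoderm list of the Foxa2-positive cells summed to 11.5, 10.96, 23591.9 and 5327.3 CPM in embryos 1, 2, 4 and 5, and Cer1 and Nodal were higher in that class in each of the 4 embryos.

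**Figure D3:**
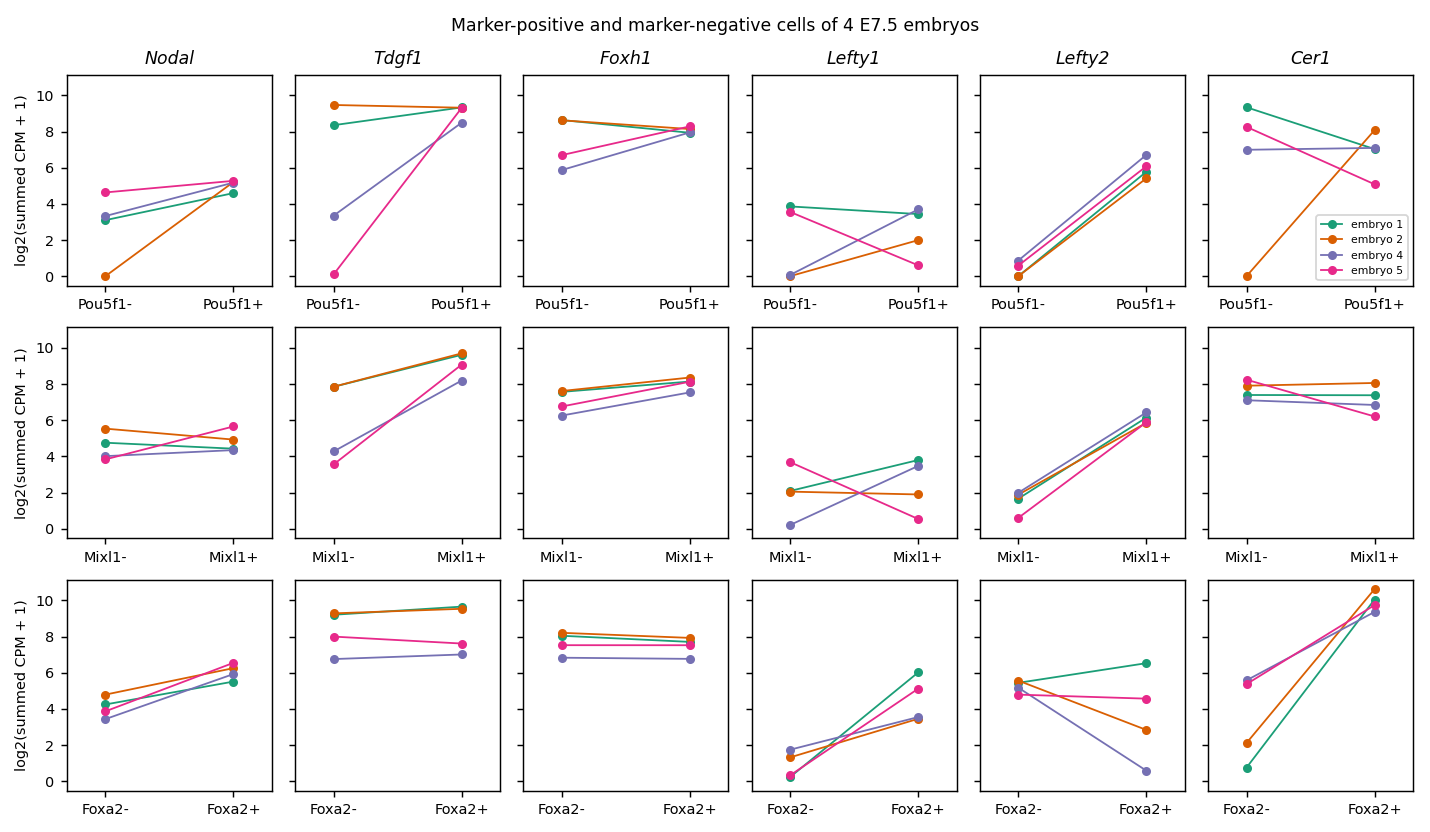
Rows are the Pou5f1, Mixl1 and Foxa2 splits and columns the members; each line joins the marker-negative and marker-positive cells of 1 of the 4 named E7.5 embryos, with log2 of summed CPM plus 1 on the y axis. Lefty2 is higher in the positive class in all 4 lines of the Pou5f1 and Mixl1 rows, and Nodal, Lefty1 and Cer1 in all 4 lines of the Foxa2 row, though edgeR called none of them.

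Ttr-positive cells were numerous enough only in embryo 4 (14 cells) and embryo 5 (13 cells), so they have values and no test. Cer1 stood at 548.3 CPM in Ttr-positive against 45.3 CPM in Ttr-negative cells of embryo 4, and at 1328 against 13.3 CPM in embryo 5. Nodal stood at 41.4 against 11.6 CPM and at 106.1 against 16.3 CPM. Tdgf1 was lower in Ttr-positive cells of both embryos, with 70.5 against 117.7 CPM in embryo 4 and 0.154 against 283.3 CPM in embryo 5.

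Of the 24 other genes of the pathway, 22, 22 and 23 were tested in the Pou5f1, Mixl1 and Foxa2 splits and 0 were called in either direction. Their median log2 fold changes were 0.26, 0.12 and 0.22, against 0.15, 0.02 and -0.21 for all genes tested and 1.92, 0.91 and 1.09 for the members. Fgf8, a streak growth factor, had the lowest adjusted p of the list, in the Foxa2 split, with 128.97, 145.7, 46.9 and 92.9 CPM in positive against 45.95, 48.7, 9.01 and 17.2 CPM in negative cells (log2 fold change 1.97 ± 0.23, adjusted p = 0.0421). Cfc1 stood at 84.3, 67.6, 83.5 and 63.3 CPM in Foxa2-positive against 15.96, 17.9, 8.06 and 18.6 CPM in Foxa2-negative cells (log2 fold change 2.36 ± 0.32, adjusted p = 0.0601). Of the ligands that can pair with Nodal, Gdf1 had 0 reads at both stages and Gdf3 stood at 3.95 CPM at E7.5. With 0 reads on every plate, a lack of Gdf1 expression and a failure to count its reads cannot be told apart.

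In cells with Nodal the shares that held the co-receptor and Cer1 were higher than in cells without it. Tdgf1 was detected in 85.5% of the 220 cells with Nodal (exact interval 80.1 to 89.8) and in 33.8% of the others (30.4 to 37.4), and was higher with Nodal on 9 of the 9 plates that held 5 or more cells of both kinds. The others include all cells of lane plates 1 and 2. In embryos 1, 2, 4 and 5 Tdgf1 was found in 35 of 35, 40 of 42, 10 of 20 and 13 of 24 cells with Nodal. Without Nodal it was found in 46 of 57, 40 of 52, 12 of 71 and 16 of 64 cells. Cer1 was detected in 21.4% with and 5.24% without Nodal, higher on 7 of 9 plates, and Lefty1 in 9.09% and 2.07%, higher on 6 of 9. Cells of a plate share their source, so these intervals describe cells and not embryos.

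For Lefty2 the intervals overlapped. It was detected in 35 of the 220 cells with Nodal (15.9%, 11.3 to 21.4) and in 11.6% of the others (9.35 to 14.1), and was higher with Nodal on 3 of 9 plates. On lane plates 5 and 6 Lefty2 was found in 1 of 15 cells with Nodal each, against 16 of 42 and 16 of 68 cells without.

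**Figure D4:**
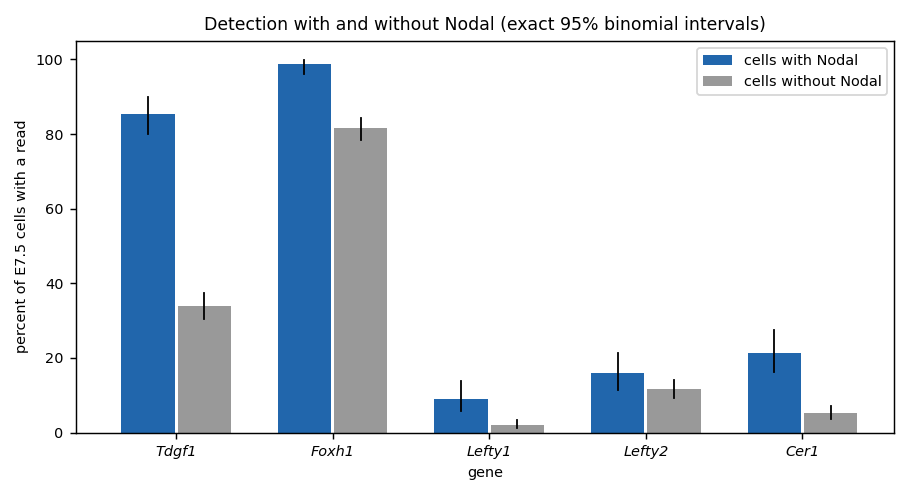
Bars give the percent of E7.5 cells with a read of each other member, among the 220 cells with Nodal (blue) and the cells without (grey), after thinning to 100000 reads; lines are exact 95% binomial intervals. Tdgf1 stands at 85.5% against 33.8%, and the Lefty2 intervals overlap.

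Among cells with Lefty2, 86.6% held Tdgf1, against 39.95% of the others, higher on 8 of 8 plates. Of all E7.5 cells, 12.8% held none of the 6 members, 36.1% held 1, 19.7% held 2, 23.7% held 3, 55 cells held 4, 13 held 5 and 5 held all 6. At E8.5 8 cells held 2 members and 0 cells held more.

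The genes most like each member across the E7.5 cells were ranked by Pearson's r of log2(CPM + 1) centred within plates, over genes with a read in at least 5% of those cells. Cells share plates and depth, so r is a description. Nodal was followed by Fgf5 (r = 0.53), Fgf8 (0.43), Nanog (0.41), Foxa2 (0.40) and Slc7a7 (0.37). Cer1 was followed by Samd3 (0.65), Dpyd (0.63), Spink1 (0.61), Foxa2 (0.60) and Foxa1 (0.59).

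Lefty2 was followed by Pcdh8 (0.48), Dll3 (0.47), Rimbp2 (0.47), Dll1 (0.47) and Pcdh19 (0.47). Lefty1 was followed by Cer1 (0.32), Foxa2 (0.26), Rgs16 (0.25), Fgf5 (0.24) and Samd3 (0.24). The paralogs thus shared none of their 5 nearest genes. Between members r was 0.32 for Nodal and Tdgf1, 0.30 for Tdgf1 and Lefty2, 0.27 for Nodal and Cer1 and -0.06 for Nodal and Lefty2.

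For Tdgf1 the most similar gene was its pseudogene Tdgf1-ps1 (r = 0.82), then Eomes (0.62), Mixl1 (0.56), Pou5f1 (0.54) and Pmaip1 (0.50). Tdgf1-ps1 stood at 9.18 CPM at E7.5 and at 0.00201 CPM at E8.5, and since both share sequence their reads are uncertain. Foxh1 was followed by Kifc2 (0.86), Vrtn (0.39), Prdx2 (0.38) and Gpc3 (0.38).

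Kifc2, a kinesin gene, lies on the opposite strand with its annotated end 29 bases from the end of Foxh1 in GENCODE M21, and the RefSeq models of both genes overlap. Foxh1 was detected in 98.1% of E7.5 cells with Kifc2 and in 37.9% of those without, and at E8.5 in 95.1% and 14.3%. For Ppp1r16a, the neighbour on the other side, the E7.5 shares were 89.2% and 79.1%. The stretch that both RefSeq models cover lies outside the GENCODE M21 model of Foxh1, so it does not bound the doubt about Foxh1 counts. Between Foxh1 and Kifc2 r was 0.86 over cells and 0.97 over the 19 plates. Smart-seq2 does not mark strand, so the strand of a read counted for Foxh1 is not known. The Foxh1 values are therefore uncertain, and how much of them comes from Foxh1 transcripts was not tested.

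Foxh1 was also found in Hba-x cells, where the other members were at or near 0. It stood at 197.5 CPM in the 52 Hba-x cells of E7.5 and at 197.2 CPM in those of E8.5, and Kifc2 stood at 45.8 and 44.5 CPM in the same cells. Of the 26 Foxa2-positive cells at E8.5, 6 held Foxh1, 1 held Nodal and 0 held Tdgf1, Lefty1, Lefty2 or Cer1.

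**Figure D5:**
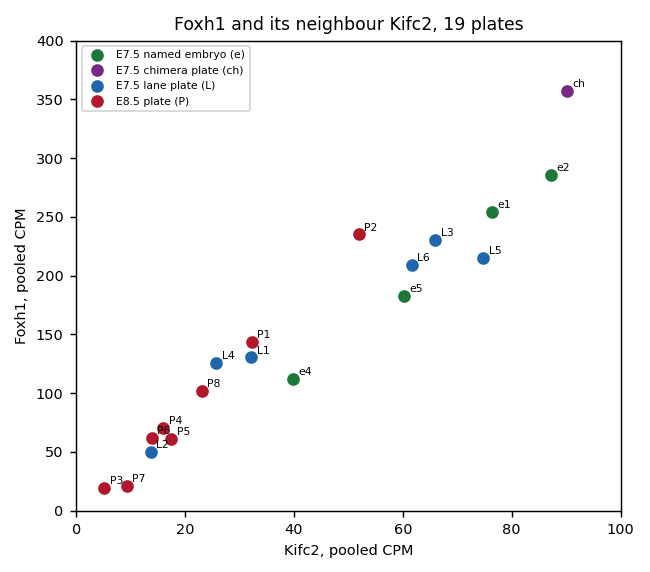
Each point is 1 of the 19 plates, with pooled CPM of Kifc2 on the x axis and of Foxh1 on the y axis. The points run from E8.5 plate 3 (5.12 and 19.4 CPM) to the chimera plate (90.2 and 357.3 CPM).

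Few E8.5 cells carried 10 CPM or more of a member other than Foxh1, and those described here were chosen after their values were seen. Nodal reached 69.5 CPM in 1 cell of plate 7 that also held 606.2 CPM of Shh and 414.7 CPM of Foxa2, both expressed in notochord and floor plate, with 109.5 CPM of the somitic gene Meox1 and 0 reads of the notochord genes T, Noto and Chrd. It reached 22.5 CPM in 1 cell of plate 4 with 839.6 CPM of Kdr and no Foxa2. Lefty1 stood at 46.2, 24.01 and 70 CPM in 3 cells of plate 3, which all held the endothelial genes Kdr and Cdh5, on a plate whose haematoendothelial list summed to 2403.8 CPM. The other 3 cells with Lefty1 held no Kdr, and of these 1 cell of plate 1 (22.4 CPM) held 10264.7 CPM of Ttr and 1 (10.7 CPM) held 57828.8 CPM of Hba-x. Tdgf1 reached 230.6 CPM in 1 cell of plate 7 with 6043 CPM of the cardiac troponin gene Tnnt2, and stood between 11.6 and 16.6 CPM in 3 others. Lefty2 reached 143.7 CPM in 1 cell of plate 4 and 111.5 CPM in 1 cell of plate 8.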

How the data were processed

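Read counts per gene and cell were deposited by the authors as raw whole numbers from Smart-seq2 libraries (75-base single-end reads), aligned with HISAT2 2.1.0 to GRCm38 and counted with featureCounts on an Ensembl annotation. The table holds 1824 cells, and 0 columns lacked a sample. The members, lists and tests were chosen with earlier results of these data known.

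Cells were filtered on reads (100000), mitochondrial (10%) and ribosomal (20%) share; no doublet caller was run. Counts were summed per plate, or per embryo and class with at least 5 cells of both, and the sums tested in edgeR 4.0.16 (R 4.3.3; filterByExpr, TMM, quasi-likelihood, Benjamini-Hochberg over all genes but the marker). Embryo was a block because both classes come from 1 animal; their deviations from the class means correlated within embryos at 0.432 to 0.643 for Mixl1, 0.361 to 0.440 for Foxa2 and 0.00746 to 0.286 for Pou5f1. Plates and wells are technical, and stages have no test. Thinning used seed 1. Intervals are exact (Clopper-Pearson, Poisson; 95%). Named genes were the members, the 24 pathway genes, listed markers and the 5 genes most correlated with each member. Some items that this rule names are not reported here. The scripts were tested on simulated data. Alternatives were DESeq2 1.42.0, other scalings, filters and thresholds, and leaving out each embryo or plate.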

Additional observations from a re-analysis of the deposited data

Results flagged for a closer look

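Of 30 sets of values examined for 1 sample far from the others, 4 had one. All 4 are E8.5 plates, for genes at 0 on 5 or 6 of the 8 plates. A chance rate of about 1 in 20 cannot be taken for values so often at 0. The 4 are therefore not read as more than chance gives. Nodal stood at 0.560 CPM on plate 7 (next plate 0.252), Lefty1 at 2.03 CPM on plate 3 (next 0.283), Lefty2 at 1.79 CPM on plate 4 (next 0.433) and Cer1 at 0.0505 CPM on plate 4 (next 0.00951). Cells with 10 CPM or more numbered 3 for Lefty1 and 1 for each of the others on these plates, and the Cer1 value is 2 reads. Their cause was not tested.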

How the results depend on the processing

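Against 0 member calls by edgeR over the 3 splits, DESeq2 gave 6 (1 for Pou5f1, 2 for Mixl1, 3 for Foxa2), no filter on low counts 2 (1, 1, 0), thinned counts 2 (1, 1, 0), all E7.5 plates with plate as replicate block 1 (Foxa2) and a 50 CPM threshold 1 (Foxa2). Without the embryo block, with other scalings and without any 1 embryo (0 to 0) there were 0. The percent of all genes called under DESeq2, no filter, all plates and thinning was 3.05, 0.0136, 0.0697 and 0.02996 for Pou5f1, 2.96, 0.0217, 0.2498 and 0.0819 for Mixl1 (0.00522 from 1 read), and 3.32, 0.0841, 0.471 and 0.849 for Foxa2 (0.0265 with DESeq2 size factors, 0 from 1 read, 0.0855 from 50 CPM, 0 to 0 without 1 embryo).

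Directions changed for uncalled log2 fold changes. Without 1 embryo, Lefty1 by Pou5f1 ran from -0.45 to 4.64, Cer1 by Pou5f1 from -1.88 to 0.62, Nodal by Mixl1 from -0.23 to 0.61 and Lefty1 by Mixl1 from -0.65 to 2.29. Cer1 reached 0.43 by Pou5f1 and 0.28 by Mixl1 on all plates and 0.076 by Pou5f1 at 50 CPM, and Tdgf1 by Foxa2 was -0.037 from 1 read. The causes were not tested.

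By stage, all 6 members stayed lower under every alternative, but 8 ratios moved, all with another pseudocount. Over the alternatives the log2 ratio of Nodal ran from -6.42 to -1.365, that of Lefty1 from -2.78 to -0.30 and that of Foxh1 from -1.41 to -0.96, above -1. Members with all E8.5 plates below all E7.5 plates ran from 0 to 2 without 1 plate (2 without lane plate 1) and were 2 without the Hba-x plates, and 0.438% of genes met this rule with no 10 CPM minimum. Genes lower by log2 1 or more were 3.43% with no minimum and 4.36% with a pseudocount of 10 CPM. The gain in Foxh1 detection with Nodal was 7.36 percentage points in the 4 named embryos against 17.1 in all cells. Embryo-level calls rest on 4 embryos, and 47 E7.5 cells hold a read of Lefty1.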
